A study of Mus musculus with 32 samples.

Results

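The comparison described here sets AML12 cells given DEX against AML12 control cells, both sampled at 17 h, across all expressed genes. AML12 is an immortalized mouse hepatocyte line, derived from the liver of a mouse that carries a human TGF-alpha transgene, so every library comes from 1 line. The labels abbreviate the treatment as DEX and call the other arm control treatment, without giving a dose, a vehicle or the event from which the hours are counted, although the column names write the time as ZT17. Each group holds 4 RNA-seq libraries, 8 of the 32 in the series. The labels also list AML12 cells given DEX and control cells at 25 h, 4 libraries each, which enter the model and 1 comparison of the times below. No genotype or other agent is named for any of these groups. Of 27843 genes in the AML12 table, 14114 had enough counts to be tested. Nothing says that the 4 libraries of a group are separate cultures, so a p-value measures only the scatter of libraries within groups. The model pools that scatter over all 16 AML12 libraries of both times, and it may be technical.

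Synthetic glucocorticoids such as dexamethasone bind the glucocorticoid receptor, which then enters the nucleus, activates genes through its own response elements and holds back genes driven by NF-kB and AP-1. A pulse of such a hormone is also a standard way to set the circadian clocks of cultured cells in step. In that clock BMAL1 (Arntl) and CLOCK activate genes through E-boxes, PER and CRY proteins repress them, REV-ERB receptors form a side loop, and DBP, TEF and HLF act through D-boxes. In the liver, glucocorticoid signalling is known for raising gluconeogenesis and acute-phase proteins and for lowering inflammatory genes.

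Promoters of genes from the groups described below are shown first, because each holds a short motif that the regulators of its group are known to bind. The windows run from 250 bases before to 50 bases after the gene's start (RefSeq, GRCm38.p6), 5′ to 3′ on the gene's strand, with the motif in capitals. These are an E-box (CACGTG) in Per1, an E-box and a related CACGTT in Cry1, D-boxes (TTATGTAA) in Per3, and the E2F motifs TTTCCCGC and TTTGGCGC in the replication gene Mcm3. The others are the cell cycle homology region (TTTGAA) in the topoisomerase gene Top2a, a C/EBP-ATF element (TGATGNAA) in asparagine synthetase (Asns) and a kB site (GGGANTTTC) in the chemokine gene Cxcl3. Capitals mark a match on either strand.
Per1 (chr11:69098699-69098998, plus strand): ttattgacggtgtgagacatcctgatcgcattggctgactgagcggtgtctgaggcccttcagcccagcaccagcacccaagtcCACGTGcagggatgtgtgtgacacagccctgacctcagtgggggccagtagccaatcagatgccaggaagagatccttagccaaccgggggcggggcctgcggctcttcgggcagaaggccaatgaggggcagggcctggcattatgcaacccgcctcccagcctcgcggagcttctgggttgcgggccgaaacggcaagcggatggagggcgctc
Cry1 (chr10:85185005-85185304, minus strand): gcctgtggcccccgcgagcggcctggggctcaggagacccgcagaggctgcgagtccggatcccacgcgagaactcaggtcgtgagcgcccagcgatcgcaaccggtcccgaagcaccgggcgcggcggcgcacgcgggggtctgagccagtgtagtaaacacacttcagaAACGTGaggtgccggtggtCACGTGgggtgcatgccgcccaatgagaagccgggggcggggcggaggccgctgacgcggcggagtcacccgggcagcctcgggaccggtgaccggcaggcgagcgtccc
Per3 (chr4:151044616-151044915, minus strand): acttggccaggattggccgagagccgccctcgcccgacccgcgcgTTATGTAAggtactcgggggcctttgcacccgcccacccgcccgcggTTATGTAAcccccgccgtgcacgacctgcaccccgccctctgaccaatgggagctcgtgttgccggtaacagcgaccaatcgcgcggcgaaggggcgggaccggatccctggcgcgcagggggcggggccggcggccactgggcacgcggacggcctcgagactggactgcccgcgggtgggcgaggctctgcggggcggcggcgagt
Mcm3 (chr1:20820263-20820562, minus strand): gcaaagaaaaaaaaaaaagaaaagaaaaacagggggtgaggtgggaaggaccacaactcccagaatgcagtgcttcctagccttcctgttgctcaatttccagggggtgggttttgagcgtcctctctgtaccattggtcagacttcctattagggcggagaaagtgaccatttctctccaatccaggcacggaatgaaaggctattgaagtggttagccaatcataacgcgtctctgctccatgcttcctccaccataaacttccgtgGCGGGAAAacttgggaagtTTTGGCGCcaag
Top2a (chr11:99024140-99024439, minus strand): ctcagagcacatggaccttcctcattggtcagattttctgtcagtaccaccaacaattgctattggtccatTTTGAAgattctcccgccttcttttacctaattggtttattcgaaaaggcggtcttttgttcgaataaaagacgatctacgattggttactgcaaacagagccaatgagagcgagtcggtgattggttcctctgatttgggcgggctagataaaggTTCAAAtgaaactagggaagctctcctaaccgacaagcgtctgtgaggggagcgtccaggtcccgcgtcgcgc
Asns (chr6:7693160-7693459, minus strand): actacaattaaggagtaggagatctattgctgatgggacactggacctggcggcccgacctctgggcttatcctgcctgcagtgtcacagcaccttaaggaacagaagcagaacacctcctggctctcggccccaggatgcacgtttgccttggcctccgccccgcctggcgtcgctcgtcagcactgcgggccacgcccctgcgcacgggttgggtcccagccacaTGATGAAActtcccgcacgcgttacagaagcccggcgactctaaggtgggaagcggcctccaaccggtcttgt
Cxcl3 (chr5:90785851-90786150, plus strand): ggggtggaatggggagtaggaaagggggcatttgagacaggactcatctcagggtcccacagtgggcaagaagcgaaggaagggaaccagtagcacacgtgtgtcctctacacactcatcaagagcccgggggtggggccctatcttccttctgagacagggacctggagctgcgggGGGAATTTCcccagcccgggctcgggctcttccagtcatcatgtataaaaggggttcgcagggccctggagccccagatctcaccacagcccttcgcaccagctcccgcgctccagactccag

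A RefSeq window was found for 9750 of 14111 tested symbols, and each of 14 motifs was counted on both strands. Not all pairs of a motif and a list are given. The cell cycle homology region stood in 20 of 29 windows of G2 and mitosis genes (69.0%), against 12.2% of all windows. A CCAAT box, which can share an end base with that region, stood in 22 of the 29 (75.9%, against 39.3%). That box is not particular to mitosis genes, as it stood in 70% of S phase, 84.6% of core clock and 84.2% of cholesterol gene windows. The E2F motif TTTCCCGC stood in 6 of 30 windows of S phase genes (20.0%), against 2.15% of all windows, and TTTGGCGC also in 6, against 1.03%. The C/EBP-ATF element was found in 7 of 23 windows of integrated stress response genes (30.4%, against 2.21%), and the kB site in 4 of 15 windows of chemokines and cytokines (26.7%, against 0.995%). An E-box was found in 5 of 13 windows of core clock genes (38.5%, against 10.2%), and a CACGTT match cannot be the same site, since the last letter differs. The receptor's short motif AGAACA was found in 12.4% of the 137 windows of genes at least 2-fold higher in DEX, 13.1% of the 206 of genes at least 2-fold lower and 12.4% of all. These are descriptions of letters in short windows, with no test, and no match says nothing of a factor.

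Total counts ranged from 16041742 to 16571834 in the DEX libraries and from 15091352 to 17136325 in the controls. DEX replicate 2 stood apart from its group. Against counting noise, its chi-square divided by the degrees of freedom was 12.4 to 16.5 in pairs with the other DEX libraries, while pairs of those gave 2.27 to 3.73 and pairs of controls 2.04 to 2.97. Its mitochondrial share of counts was 2.65%, against at most 1.85% in the other DEX libraries and 1.95% to 2.09% in controls. Over 8930 protein-coding genes of at least 10 CPM, the 10% with the shortest exon length had a median deviation of -0.13 log2 units from the other DEX libraries and the 10% with the longest a median of 0.10. Without it, 5569 genes passed in place of 5419, and 4860 genes passed both ways, with 0 of the 5419 changing sign. Calls and list counts that depend on it are given with and without it where they appear.

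Markers of hepatocytes were present in part. Of 22 hepatocyte markers, 10 were tested, led by the nuclear receptor gene Hnf4a (148 ± 6.80 CPM in DEX and 215 ± 2.51 CPM in control cells, mean ± SD, n = 4), the retinol carrier gene Rbp4 (206 ± 19.4 CPM in DEX, 297 ± 5.32 CPM in control cells) and the lipoprotein gene Apob (133 ± 9.79 CPM in DEX, 174 ± 17.3 CPM in control cells). The carbamoyl phosphate synthetase gene Cps1, a defining marker of mature hepatocytes, had 3 counts in each group and was nearly absent. The summed level of the hepatocyte list was 477 to 520.2 CPM in DEX libraries, against 687 to 715 CPM in controls. Of 12 bile duct markers, 7 were tested, with the keratin gene Krt19 at 1811 ± 82.9 CPM in DEX and 1498 ± 80.0 CPM in control cells, while Epcam was not in the table. Their sum was 3499 to 3714 CPM in DEX libraries, against 3631 to 3823 CPM in controls. Markers of other cell types were low, and their part in the results below was not tested. Of 13 macrophage and immune markers 3 were tested, with a sum of 9.24 to 12.8 CPM in DEX libraries and 13.8 to 15.4 CPM in controls, and Cd3e had 0 counts in both groups. Of 13 fibroblast markers 4 were tested (6.34 to 7.67 CPM in DEX, 7.76 to 8.5 CPM in controls), and Dcn and Thy1 had 0 counts. Of 12 endothelial markers 3 were tested (26.8 to 29.6 CPM in DEX, 23.8 to 25.8 CPM in controls), and Tek had 0 counts. In a culture measured in bulk, fewer cells of a kind and less RNA per cell cannot be told apart.

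A large share of the transcriptome differed between DEX and control cells at 17 h, mostly by small amounts. Of the 14114 tested genes, 5419 passed edgeR's quasi-likelihood test at a Benjamini-Hochberg adjusted p of 0.05 (38.4%), 2892 higher (20.5%) and 2527 lower (17.9%) in DEX. The median absolute log2 fold change of the genes that passed was 0.33, and 3752 of them (69.2%) lay under 0.5. With total counts in place of TMM scaling 2389 were higher and 3070 lower. At least 2-fold changes numbered 517 (3.66%), with 202 higher (1.43%) and 315 lower (2.23%). The 4 DEX libraries lay all above or all below the 4 controls for 4815 genes (34.1%), which include 4429 of the 5419 that passed. Among protein-coding genes 23.3% rose and 19.4% fell. Among long intergenic RNAs 9.35% rose and 21.6% fell, and among antisense RNAs 6.41% rose and 12.0% fell. By level, 16.4% of genes with a mean under 1 CPM passed, against 51.6% of those with a mean of at least 100 CPM.

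**Figure D1:**
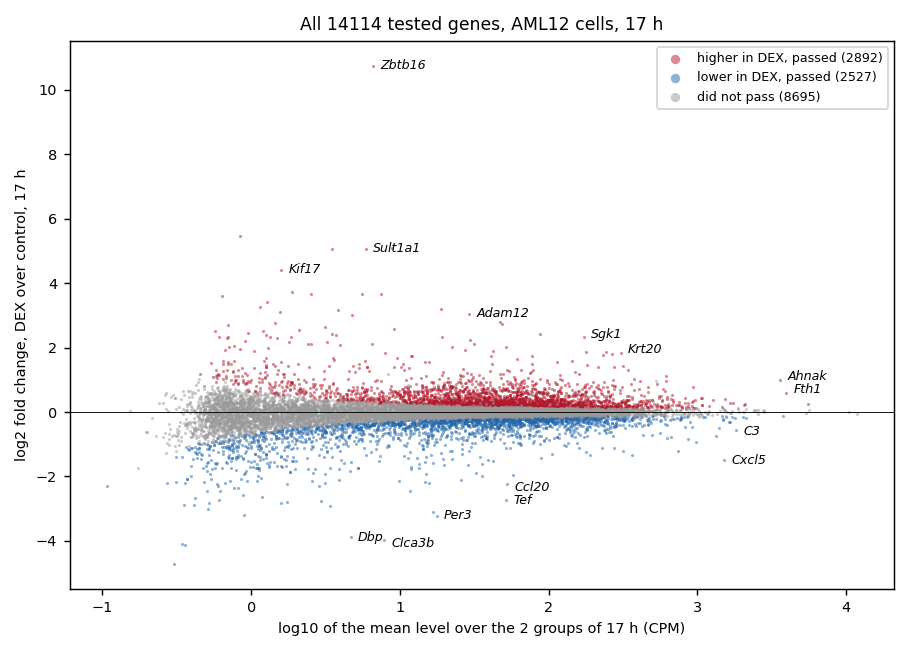
All tested genes, with the log10 of their mean level in CPM on the x axis and the log2 fold change of DEX over control cells at 17 h on the y axis. The 2892 red points passed as higher and the 2527 blue points as lower in DEX, while the 8695 grey points did not pass. Most coloured points lie near 0, and the value drawn for Zbtb16 depends on the prior count, as its controls had 0 counts.

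In what follows CPM are counts scaled to the TMM-adjusted library total. A value in parentheses after a gene is the fitted log2 fold change of DEX over control ± SE with 4 libraries a side, and positive values are higher in DEX. "Rose" and "fell" are used of genes that passed the test, and a list's median is that of the log2 fold changes of its tested members, beside a median of 0 over all genes. A list's counts stand beside the 20.5% of all tested genes that rose and the 17.9% that fell, and a share near those is no result about the list. The strand setting of the counting is unknown, so reads of overlapping exons cannot be told apart. This touches Fosl1 (57.2% of its exon length lies under Ccdc85b), Hectd2os (46.1%, Hectd2), Ldhd (42.2%, Znrf1), Slc13a2 (26.2%, Slc13a2os), Spry1 (24.4%, Gm42922), Ctgf (23.2%, Gm15270), Cebpb (20.7%, Tmem189), Bhlhe41 (19.0%, Gm43909), Spp1 (18.8%, Gm42793), Atp1b1 (18.7%, Nme7) and Dbp (18.0%, Sphk2). It also touches Sqstm1, Cryab, Ptger4, Pkm, Ctnnb1, Ccna2, Icam1 and Psph, by 10.4% to 17.3% of their exon length.

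The 20 largest rises included genes of sulfate conjugation, matrix cleavage and lipid sensing. The transcription factor gene Zbtb16 had 13.7, 12.0, 13.0 and 13.8 CPM in the DEX libraries and 0 counts in all controls, at least 288-fold higher when 3 counts over the 4 controls together are taken as the limit. Next came Sult1a1, a sulfotransferase of phenols, with 12.7, 11.1, 9.33 and 12.8 CPM in DEX libraries and 0.321, 0.195, 0.513 and 0.29 CPM in controls (5.07 ± 0.32). A related enzyme gene, Sult1d1, had 39.3, 30.2, 27.3 and 38.5 CPM in DEX libraries, against 3.59, 3.63, 3.42 and 4.07 CPM in controls (3.20 ± 0.19). In each of these the lowest DEX library lay several times above the highest control. That the groups do not overlap was a condition for entering the 20 largest rises or falls, so it is no result.

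Adam12, a membrane-bound metalloprotease gene (ENSMUSG00000054555, chromosome 7, 133883199 to 134232146, minus strand, GRCm38), had 51.2, 54.4, 54.9 and 47.0 CPM in DEX libraries and 6.60, 6.23, 5.82 and 6.33 CPM in controls, 8.31-fold higher (3.05 ± 0.10, edgeR adjusted p = 3.51e-17). Foxred2, whose product acts in the clearance of misfolded proteins from the endoplasmic reticulum, had 76.6, 97.1, 76.4 and 85.0 CPM in DEX and 13.3, 12.8, 13.2 and 11.2 CPM in control libraries (2.73 ± 0.09). The mitochondrial carrier gene Slc25a48 reached 151, 135, 151 and 147 CPM in DEX libraries, against 28.2, 28.6, 27.6 and 25.3 CPM in controls (2.41 ± 0.08). These were the most abundant of the 20 largest rises apart from the D-lactate dehydrogenase gene Ldhd, at 82.4 ± 4.43 CPM in DEX and 11.7 ± 0.766 CPM in control cells (2.81 ± 0.12).

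Others among the 20 were the kinesin gene Kif17 (4.41 ± 0.35), the plasma protein gene Orm1 (3.67 ± 0.18), Crispld2 (3.66 ± 0.24), the metalloprotease gene Tll1 (3.66 ± 0.23), the somatostatin receptor gene Sstr3 (3.59 ± 0.51) and the crystallin gene Cryaa (3.25 ± 0.37). The fatty acid receptor gene Ppara had 8.58, 7.91, 7.74 and 9.62 CPM in DEX libraries, against 1.15, 0.843, 0.97 and 1.22 CPM in controls (3.00 ± 0.17). The aldehyde dehydrogenase gene Aldh1a7 (2.54 ± 0.27), the cadherin gene Fat2 (2.56 ± 0.15), the transporter gene Abca6 (2.41 ± 0.17), Extl1 of heparan sulfate synthesis (2.40 ± 0.14), the tight junction gene Cldn18 (2.40 ± 0.33) and Med12l (2.44 ± 0.32) completed them. Several of these stayed low in both groups, with Sstr3 at 1.18 ± 0.336 CPM in DEX and 0.0903 ± 0.0772 CPM in control cells and Med12l at 1.60 ± 0.139 CPM in DEX and 0.289 ± 0.0564 CPM in control cells. Reads of Orm1, of the sulfotransferases and of Aldh1a7 may be shared with close paralogs, which makes their levels uncertain.

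The largest falls included clock output genes, a chloride channel regulator and secreted signals. Clca3b, of the calcium-activated chloride channel regulator family, had 0.665, 1.52, 1.04 and 0.493 CPM in DEX libraries, against 14.2, 14.2, 14.3 and 15.9 CPM in controls (-3.97 ± 0.25), and has close paralogs. Gabrp, a GABA receptor subunit gene, had 2.96, 4.56, 3.23 and 3.14 CPM in DEX and 31.5, 29.9, 28.6 and 28.7 CPM in control libraries (-3.09 ± 0.14). The groups were wide apart in both, although the choice of the largest falls already required that they not overlap. Netrin (Ntn1), a guidance cue, stood at 0.753 ± 0.0815 CPM in DEX and 5.16 ± 0.288 CPM in control cells (-2.76 ± 0.19), and Enpp2, the enzyme autotaxin that makes lysophosphatidic acid, at 5.51 ± 0.873 CPM in DEX and 25.6 ± 0.646 CPM in control cells (-2.21 ± 0.15).

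Further falls were in the citrate transporter gene Slc13a2 (3.57 ± 1.09 CPM in DEX and 19.7 ± 3.11 CPM in control cells, -2.46 ± 0.16), the sulfate transporter gene Slc13a4 (-2.35 ± 0.36), the smooth muscle gene Cnn1 (-2.29 ± 0.25), the decoy receptor gene Il13ra2 (-2.59 ± 0.30) and the guanylate-binding protein genes Gbp3 (-2.46 ± 0.39) and Gbp11 (-2.73 ± 0.43). Myh15 (-3.20 ± 0.41), Chst4 (-2.91 ± 0.22), Vwa5b1 (-2.83 ± 0.25), Blk (-2.79 ± 0.29), Ipcef1 (-2.24 ± 0.20) and the antisense RNA Hectd2os (-2.36 ± 0.38) also belong to the 20 largest falls, with Dbp, Per3, Tef and Ccl20 described below. Some of these genes were low even in controls, with control libraries at 0.897 to 1.54 CPM for Slc13a4 and 1.10 to 1.71 CPM for Hectd2os.

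**Figure D2:**
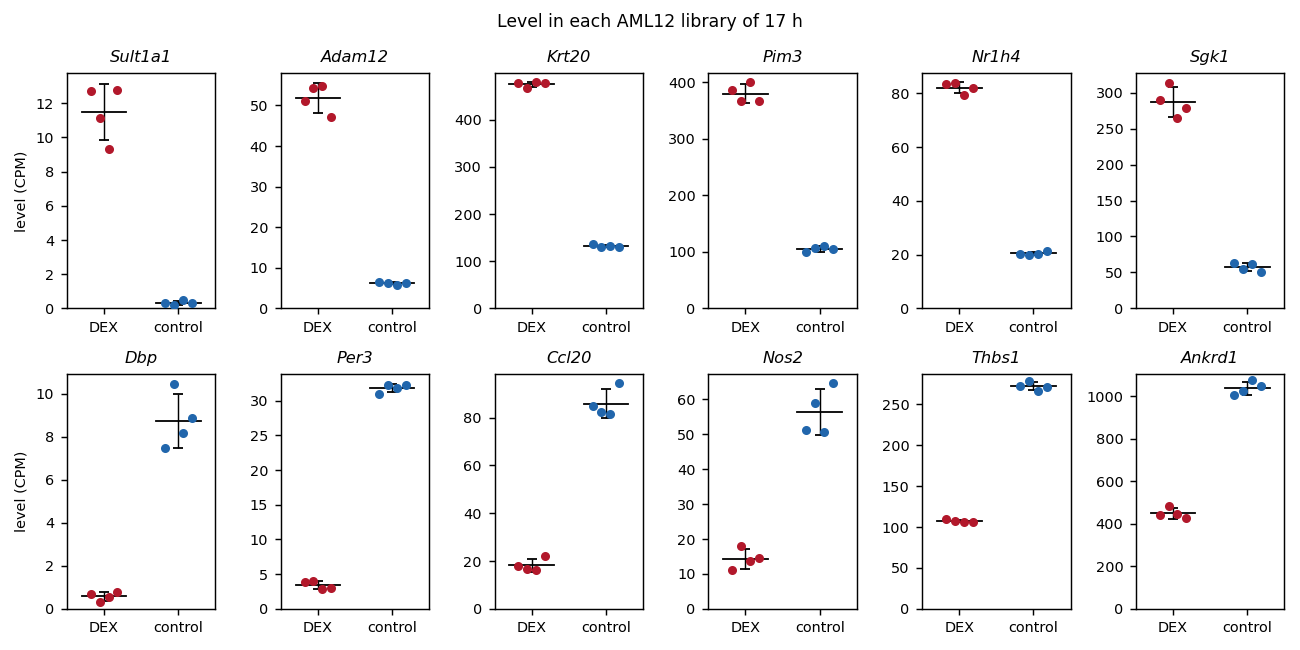
Level in CPM of 12 genes in each AML12 library of 17 h, with DEX libraries left of controls, the mean as a line and the SD as a bar (n = 4). In every panel the 4 DEX libraries lie on one side of the 4 controls, above them for Sult1a1, Adam12, Krt20, Pim3, Nr1h4 and Sgk1 and below them for Dbp, Per3, Ccl20, Nos2, Thbs1 and Ankrd1. For Sult1a1, Adam12, Dbp, Per3 and Ccl20 this separation was a condition of their place among the largest rises or falls.

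Counted in absolute level, other genes led. The giant scaffold gene Ahnak gained most, with 5012, 4638, 4985 and 4537 CPM in DEX libraries and 2452, 2538, 2269 and 2288 CPM in controls (1.01 ± 0.05). Ferritin heavy chain (Fth1), the iron store, had 4589.9, 4619, 4952 and 4903 CPM in DEX libraries, against 3132, 3045, 3167 and 3263 CPM in controls (0.60 ± 0.04). The membrane linker ezrin (Ezr, 0.79 ± 0.04), the desaturase gene Scd2 (0.25 ± 0.05), annexin A2 (Anxa2, 0.40 ± 0.04), Myof of membrane repair (0.24 ± 0.04) and the linker histone gene H1f0 (0.38 ± 0.06) were also among the 10 largest gains, with Psat1, Gclc and Krt20 described below. The largest loss was in the neutrophil chemokine gene Cxcl5, at 733, 805, 788 and 809.7 CPM in DEX libraries and 2294, 2139, 2246 and 2212 CPM in controls (-1.50 ± 0.05). Complement C3 (-0.56 ± 0.05), osteopontin (Spp1, -0.75 ± 0.05), the monocyte chemokine gene Ccl2 (-0.92 ± 0.05), Ankrd1 (-1.21 ± 0.05), the adaptor gene Pea15a (-0.85 ± 0.04), actin (Actg1, -0.51 ± 0.05), basigin (Bsg, -0.32 ± 0.04), clusterin (Clu, -0.76 ± 0.05) and the hyaluronan receptor gene Cd44 (-0.80 ± 0.05) followed. C3 held 1458 ± 25.0 CPM in DEX cells, against 2151 ± 73.9 CPM in control cells, and stayed among the abundant transcripts of the line.

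Most classical glucocorticoid targets rose. In that list, 19 of 25 tested members rose and 2 fell (median 0.78), against 38.4% of all genes called. Sgk1, a kinase that keeps sodium channels at the membrane, had 290.0, 314, 265 and 278 CPM in DEX libraries, against 62.8, 54.7, 61.9 and 50.9 CPM in controls (2.32 ± 0.07). Fkbp5, a cochaperone that lowers the hormone affinity of the receptor, had 374, 313, 375 and 374 CPM in DEX and 104, 107, 103 and 106 CPM in control libraries (1.77 ± 0.06). Tsc22d3, which encodes the leucine zipper protein GILZ, had 120.1, 122, 114 and 117 CPM in DEX and 33.8, 37.0, 33.6 and 37.7 CPM in control libraries (1.73 ± 0.05). None of these groups overlapped. The phosphatase gene Dusp1 (1.18 ± 0.06), the Krüppel-like factor gene Klf9 (1.23 ± 0.05) and annexin A1 (Anxa1, 0.38 ± 0.05) rose by less. Cebpb, a C/EBP factor gene, had 65.2, 121, 95.6 and 57.4 CPM in DEX and 49.8, 46.8, 47.6 and 52.6 CPM in control libraries (0.78 ± 0.14), and its highest DEX value was in the library that stood apart. Angptl4, a lipase inhibitor gene that glucocorticoids raise in liver, fell slightly (-0.17 ± 0.06), with 20.5, 20.5, 20.9 and 22.8 CPM in DEX and 24.0, 22.2, 23.7 and 25.5 CPM in control libraries. Its groups overlapped, and without DEX replicate 1 (adjusted p = 0.0577) or control replicate 4 (adjusted p = 0.0846) it did not pass in edgeR, which leaves 1 member of the list lower. The lowest log2 fold change of a tested member of the list was -0.73.

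The receptor itself moved little. Nr3c1, the glucocorticoid receptor gene, had 153, 160.2, 148 and 155 CPM in DEX libraries and 182, 183, 184 and 191 CPM in controls (-0.27 ± 0.04), slightly lower in DEX. Of its list of partners, 3 of 20 tested members rose and 5 fell (median 0.00), and 6 were higher without DEX replicate 4. The chaperone gene Hsp90aa1 rose (0.45 ± 0.04) while Hsp90ab1 (-0.13 ± 0.03) and the cochaperone gene Dnaja1 (-0.31 ± 0.05) fell. H6pd, whose enzyme supplies NADPH for the reduction of cortisone-type steroids, rose (0.77 ± 0.04, 393 ± 23.5 CPM in DEX and 231 ± 5.48 CPM in control cells). The steroid dehydrogenase genes Hsd11b1 (-1.39 ± 0.46) and Hsd11b2 (-0.91 ± 0.35) fell, both below 1 CPM in either group. Without DEX replicate 1 (adjusted p = 0.133), DEX replicate 3 (0.0555), control replicate 1 (0.105) or control replicate 3 (0.125) Hsd11b2 did not pass in edgeR.

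Core clock genes changed in both directions. In their list, 5 of 16 tested members rose and 9 fell (median -0.98). The output gene Dbp had 0.665, 0.316, 0.549 and 0.802 CPM in DEX libraries, against 7.50, 10.4, 8.16 and 8.89 CPM in controls (-3.88 ± 0.18). Tef, its close relative, had 12.5, 14.3, 12.5 and 14.6 CPM in DEX and 90.5, 89.4, 91.6 and 90.0 CPM in control libraries (-2.75 ± 0.06, edgeR adjusted p = 1.26e-20). The groups lay far apart in both, although their place among the largest falls already required that they not overlap. Per3, with D-boxes in the promoter shown above, had 3.81, 3.99, 2.80 and 3.02 CPM in DEX libraries and 31.0, 32.2, 31.9 and 32.2 CPM in controls (-3.22 ± 0.13). Per1, whose promoter holds an E-box and which glucocorticoid receptors are known to activate directly, went the other way, with 93.0, 97.4, 90.0 and 90.6 CPM in DEX libraries and 29.6, 32.7, 26.4 and 30.1 CPM in controls (1.65 ± 0.07). The receptor's short motif AGAACA stood in 0 of the 13 core clock windows, that of Per1 among them. The cause of the rise in Per1 was not tested.

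Among the other repressors, Per2 (-1.77 ± 0.11), Cry1 (-1.01 ± 0.12) and Cry2 (-1.02 ± 0.09) fell. The REV-ERB genes Nr1d1 (-0.95 ± 0.12) and Nr1d2 (-1.63 ± 0.07) fell as well. The activator gene Arntl had 39.8, 45.2, 32.4 and 37.2 CPM in DEX libraries, against 20.2, 19.8, 20.3 and 18.4 CPM in controls (0.97 ± 0.08), and Clock rose less (0.31 ± 0.05). The D-box repressor gene Nfil3 (0.33 ± 0.06) and the E-box repressor gene Bhlhe41 (0.33 ± 0.10) rose, while Bhlhe40 (-0.10 ± 0.06, edgeR adjusted p = 0.206) and Ciart (-0.31 ± 0.24, adjusted p = 0.323) did not pass. Bhlhe41 did not pass without control replicate 4 (edgeR adjusted p = 0.0559), and Bhlhe40 passed as lower without DEX replicate 2 (-0.19, adjusted p = 0.000767).

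**Figure D3:**
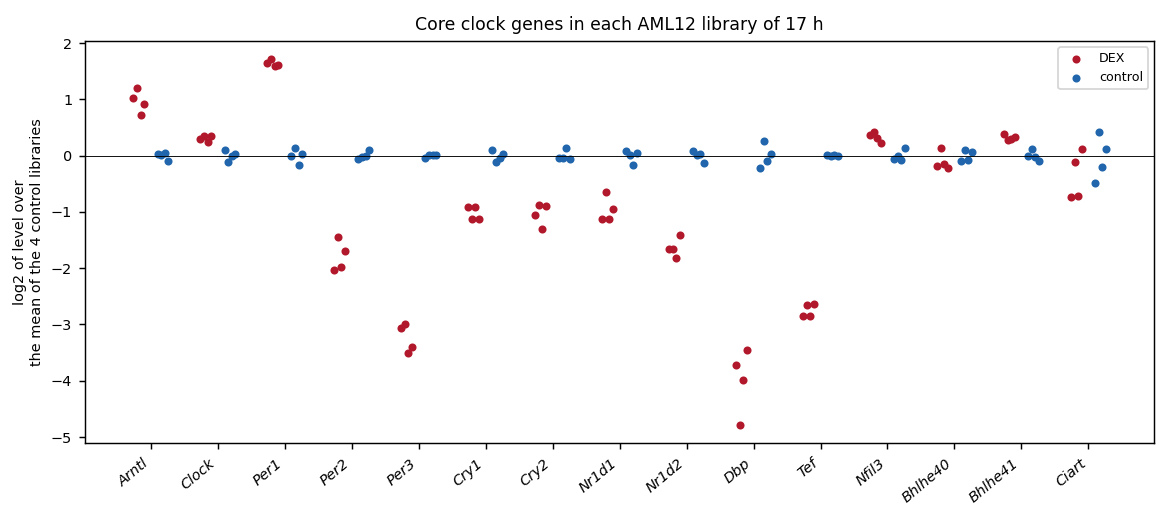
Core clock genes described in the text in each AML12 library of 17 h, as the log2 of the level over the mean of the 4 control libraries, with DEX points left of control points for each gene. Dbp, Per3 and Tef lie lowest in DEX and Per1 and Arntl highest, while the points of Bhlhe40 and Ciart overlap between the groups.

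Of genes that modify the clock or follow it, 6 of 18 tested members rose and 4 fell (median -0.02), so the list did not move as a group. Its lowest log2 fold change was -0.59, and the members named here are ones that rose. Pim3, a survival kinase gene, had 386, 367, 401 and 366 CPM in DEX libraries and 99.4, 106, 111 and 104 CPM in controls (1.85 ± 0.05). The deubiquitinase gene Usp2 (0.77 ± 0.15), Timeless of replication fork protection (0.61 ± 0.06) and its partner Tipin (0.32 ± 0.07) rose.

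Immediate early genes split. Their list had 7 members higher and 8 lower in DEX of 23 tested, with a median of 0.06. Zfp36, which encodes the RNA-decay protein tristetraprolin and is a known glucocorticoid target, had 21.6, 27.5, 19.0 and 19.5 CPM in DEX and 7.05, 8.30, 6.50 and 8.07 CPM in control libraries (1.55 ± 0.12). The AP-1 gene Fosl1 rose (1.03 ± 0.07), with 79.5 ± 10.4 CPM in DEX and 39.0 ± 1.45 CPM in control cells. Its relatives Fosl2 (-0.71 ± 0.05), Jun (-0.73 ± 0.08) and Junb (-0.34 ± 0.06) fell, as did Ier3 (-1.12 ± 0.06) and Atf3 (-0.88 ± 0.08). Feedback genes of the ERK pathway leaned up, since 8 of 18 tested members rose and 4 fell (median 0.21). The phosphatase genes Dusp6 (0.54 ± 0.05) and Dusp7 (0.57 ± 0.07) and the ETS factor genes Etv4 (0.40 ± 0.06) and Etv5 (0.67 ± 0.08) rose, and Dusp4 (-0.64 ± 0.05) and Spry1 (-0.64 ± 0.08) fell.

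Chemokines and cytokines fell or did not pass, and 0 of 24 rose. In this list 16 fell, with a median of -0.93. Ccl20, which draws cells bearing CCR6, had 17.8, 16.7, 16.3 and 22.2 CPM in DEX libraries, against 84.9, 82.6, 81.7 and 94.6 CPM in controls (-2.24 ± 0.08). Ccl2 had 627, 714, 664 and 687 CPM in DEX and 1261, 1219, 1277 and 1339 CPM in control libraries. Cxcl3, with the kB site shown above, had 47.0, 63.3, 49.7 and 55.2 CPM in DEX libraries, against 103, 98.6, 101 and 112 CPM in controls (-0.95 ± 0.07). No DEX library reached the lowest control for any of these, which for Ccl20 was a condition of its place among the largest falls. The monocyte chemokine gene Ccl7 (-1.74 ± 0.13), the CXCR3 ligand gene Cxcl11 (-1.41 ± 0.11), the alarmin gene Il33 (-0.74 ± 0.06) and the macrophage growth factor gene Csf1 (-0.70 ± 0.05) fell too. Ccl3, named after its values were seen, had 1 count over the 4 DEX libraries and 39 over the 4 controls, a ratio of 38.5 in favour of the controls with an exact 95% interval of 6.52 to 1560.0 for counting error only.

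Genes of NF-kB and its feedback mostly fell, as 2 of 22 tested members rose and 14 fell (median -0.25). None was higher in DESeq2, with total counts or in thinned counts, without DEX replicate 1, control replicate 2 or control replicate 4, or without any 1 of 6 of the 8 libraries of 25 h. A single member was higher with RLE size factors, no filter or the 17 h libraries alone, and without DEX replicate 3, control replicate 1, control replicate 3 or control 25 h replicate 3. The subunit gene Nfkb1 (-0.73 ± 0.05), the regulator gene Nfkbiz (-0.69 ± 0.04), the inhibitor of apoptosis gene Birc3 (-0.76 ± 0.05) and the A20 partner gene Tnip1 (-0.48 ± 0.04) fell. Nfkb1 had 191, 200.3, 213 and 206 CPM in DEX and 327, 342, 331 and 344 CPM in control libraries. Of cytokine receptors and JAK-STAT genes, 5 of 30 tested members rose and 12 fell (median -0.08). The signalling kinase gene Jak2 stood at 372 ± 20.3 CPM in DEX and 617 ± 13.2 CPM in control cells (-0.73 ± 0.05), and Cish, a feedback inhibitor induced by STAT5, at 6.62 ± 0.962 CPM in DEX and 20.4 ± 1.29 CPM in control cells (-1.63 ± 0.09). The interleukin-1 receptor gene Il1r1 (-0.96 ± 0.11), its antagonist Il1rn (-1.54 ± 0.09), the death receptor gene Fas (-0.98 ± 0.08) and Tlr2 (-1.01 ± 0.11) fell, while Socs2 (0.67 ± 0.06) and Tnfrsf1a (0.31 ± 0.04) rose. Of interferon response and antigen presentation genes, 1 of 22 tested members rose and 8 fell (median -0.24). That median was -0.15 without DEX replicate 2 and -0.09 with the 17 h libraries alone. The exonuclease gene Isg20 was the member that rose, with 131, 118, 139 and 132 CPM in DEX libraries, against 57.9, 67.1, 69.8 and 69.1 CPM in controls (0.98 ± 0.06), whereas Gbp2 (-1.50 ± 0.17) and Irf1 (-0.68 ± 0.07) fell.

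Effectors of inflammation followed different courses. Nos2, the inducible nitric oxide synthase gene, had 11.2, 18.0, 13.6 and 14.7 CPM in DEX libraries and 51.3, 58.9, 50.6 and 64.8 CPM in controls, 3.94-fold higher in controls (-1.98 ± 0.13). Of the 14 tested arginine, nitric oxide and polyamine genes, 5 were higher and 2, Nos2 among them, lower. The ornithine decarboxylase gene Odc1 (0.50 ± 0.05) and the arginine transporter gene Slc7a1 (0.63 ± 0.05) rose. Of prostaglandin and eicosanoid genes, 4 of 16 tested members rose and 5 fell (median -0.13). That median was -0.07 without DEX replicate 2. The inducible cyclooxygenase gene Ptgs2 (-1.64 ± 0.08) and the receptor gene Ptger4 (-1.59 ± 0.26) fell, while the constitutive enzyme gene Ptgs1 (0.44 ± 0.04) and the prostaglandin transporter gene Slco2a1 (0.38 ± 0.04) rose. Complement and coagulation genes mostly fell, as 2 of 17 tested members rose and 11 fell (median -0.33). The classical pathway proteases C1s1 (-1.05 ± 0.05) and C1ra (-0.76 ± 0.08) and factor B (Cfb, -1.14 ± 0.17) fell. Acute-phase genes did not move as 1 block, since 3 of 12 tested members rose and 7 fell (median -0.36). Haptoglobin (Hp, 1.55 ± 0.09) rose while the heme carrier hemopexin (Hpx, -1.52 ± 0.09), Saa3 (-0.50 ± 0.10) and Cd14 (-0.61 ± 0.04) fell.

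Most hepatocyte transcription factor genes that changed were lower, as 2 of 17 tested members rose and 9 fell (median -0.20). Hnf4a (-0.54 ± 0.04), Cebpa (-0.59 ± 0.10), Zhx2 (-0.54 ± 0.08) and Nr5a2 (-1.02 ± 0.20) fell. The bile acid receptor gene Nr1h4 rose, with 83.6, 83.7, 79.2 and 82.1 CPM in DEX libraries and 20.3, 20.0, 20.3 and 21.2 CPM in controls (2.01 ± 0.07). Among nuclear receptors, 3 of 21 tested members rose and 5 fell (median 0.02). Besides Nr1h4 and Ppara, Nr2f2 rose (0.60 ± 0.07), and the thyroid hormone receptor gene Thrb (-0.44 ± 0.11) and the oxysterol receptor gene Nr1h3 (-0.30 ± 0.07) fell. The marker list went both ways, with 3 higher and 6 lower of 10 tested. Rbp4 (-0.53 ± 0.05) and Apob (-0.38 ± 0.07) fell, and albumin (Alb, 1.41 ± 0.30), transthyretin (Ttr, 1.69 ± 0.26) and Apoa1 (1.41 ± 0.22) rose. These 3 stayed low, with Alb at 1.83 ± 0.143 CPM in DEX and 0.681 ± 0.216 CPM in control cells, Ttr at 1.93 ± 0.381 CPM in DEX and 0.592 ± 0.241 CPM in control cells, and Apoa1 at 1.83 ± 0.0998 CPM in DEX and 0.678 ± 0.166 CPM in control cells.

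Enzymes of detoxification changed selectively. Of cytochrome P450 and other phase I genes, 7 of 26 tested members rose and 11 fell (median -0.16). Aldh1a1, which makes retinoic acid from retinal, had 56.4, 45.6, 43.6 and 57.2 CPM in DEX libraries, against 12.0, 11.0, 12.3 and 11.9 CPM in controls (2.10 ± 0.15). The epoxide hydrolase gene Ephx2 (0.59 ± 0.05) and the P450 reductase gene Por (0.44 ± 0.05) rose, and Ephx1 (-0.44 ± 0.05) and Adh7 (-0.42 ± 0.05) fell. In the phase II list 6 of 28 tested members rose and 7 fell (median 0.00). Glutathione transferases of the alpha class rose, with Gsta3 at 45.4, 37.5, 41.6 and 45.0 CPM in DEX libraries and 20.7, 21.4, 18.5 and 18.9 CPM in controls (1.09 ± 0.08), Gsta4 at 0.40 ± 0.04 and Gsta1 at 2.32 ± 0.27, although reads of such paralogs may be shared. The glucuronosyltransferase gene Ugt2b34 (-0.73 ± 0.05) and the microsomal transferases Mgst1 (-0.34 ± 0.05) and Mgst2 (-0.46 ± 0.06) fell. Among ABC transporters 4 rose and 7 fell of 19, with the canalicular export pump gene Abcc2 (-0.80 ± 0.07) and Abcc4 (-0.47 ± 0.05) lower and Abcc10 higher (0.96 ± 0.06).

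Amino acid transporters leaned up, as 10 of 21 tested members rose and 5 fell (median 0.03). The glutamine and neutral amino acid carrier gene Slc1a5 had 97.9, 95.9, 104 and 91.3 CPM in DEX libraries, against 44.0, 49.9, 45.0 and 48.0 CPM in controls (1.06 ± 0.05), and Slc7a5 of the large neutral amino acid exchanger rose too (0.60 ± 0.06). Slc1a2, a glutamate carrier gene, had 10.0, 14.3, 11.2 and 11.8 CPM in DEX and 32.5, 32.6, 33.2 and 32.1 CPM in control libraries (-1.46 ± 0.09). In the list of ion and water transport, 5 of 25 tested members rose and 9 fell (median 0.00). The share that rose lies near that of all genes. The sodium channel subunit gene Scnn1a had 7.73, 10.8, 7.31 and 9.19 CPM in DEX libraries and 3.33, 4.15, 2.97 and 2.96 CPM in controls (1.39 ± 0.14), and the sodium pump subunit gene Atp1b1 (0.90 ± 0.07) was higher. The ubiquitin ligase gene Nedd4l, whose product acts on that channel, was higher too (0.48 ± 0.04). The cotransporter genes Slc12a7 (-0.34 ± 0.04) and Slc4a7 (-0.36 ± 0.04) fell.

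Glucose genes did not move as a group. Of gluconeogenesis and glucose handling genes, 7 of 21 tested members rose and 5 fell (median 0.04), with the mitochondrial enzyme gene Pck2 (0.51 ± 0.06), Irs2 of insulin signalling (0.50 ± 0.05) and the pyruvate dehydrogenase kinase gene Pdk2 (0.59 ± 0.07) higher. In glycolysis and the hypoxia response 3 of 32 tested members rose and 10 fell (median -0.02), with 6 higher without DEX replicate 2 and 1 higher without control replicate 1. The hexokinase gene Hk2 had 3.63, 2.98, 4.02 and 4.32 CPM in DEX libraries, against 10.6, 12.4, 9.59 and 10.4 CPM in controls (-1.52 ± 0.12), while Hk1 rose slightly (0.19 ± 0.04) and the abundant pyruvate kinase gene Pkm did not pass (-0.02 ± 0.04). Of fatty acid oxidation genes, 5 of 30 tested members rose and 3 fell (median 0.01), 5 lower without DEX replicate 3, and the carnitine transferase gene Cpt1a (0.41 ± 0.04), the uncoupling protein gene Ucp2 (0.48 ± 0.06) and the lipid droplet gene Plin4 (0.91 ± 0.17) rose.

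Most genes of lipid and sterol synthesis rose, by small amounts. In the fatty acid list 16 of 26 tested members rose and 5 fell (median 0.23), with the elongase genes Elovl6 (0.60 ± 0.07) and Elovl5 (0.43 ± 0.04), the acetyl-CoA carboxylase gene Acaca (0.35 ± 0.04) and Gpam (0.40 ± 0.04) higher and malic enzyme (Me1, -0.43 ± 0.04) and Acsl1 (-0.46 ± 0.05) lower. In the cholesterol list 22 of 27 tested members rose and 1 fell (median 0.34). The sterol oxidase gene Msmo1 had 237, 265, 226 and 253 CPM in DEX and 162, 156, 153 and 157 CPM in control libraries (0.65 ± 0.05), and lanosterol synthase (Lss, 0.62 ± 0.05), mevalonate kinase (Mvk, 0.62 ± 0.05) and Sqle (0.37 ± 0.04) rose too. Fgfr4, the hepatic receptor of FGF15 in the control of bile acids, fell (-0.52 ± 0.05).

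Serine, glycine and folate genes were among the most uniform, and 0 of 20 fell. In this list 18 rose, with a median of 0.39, and without DEX replicate 3 1 member was lower. Psat1, of the serine pathway, had 879, 814, 829.9 and 849.9 CPM in DEX libraries and 402, 395, 399.9 and 374 CPM in controls (1.10 ± 0.06). The next enzyme, Psph (0.95 ± 0.07), the mitochondrial serine hydroxymethyltransferase gene Shmt2 (0.90 ± 0.05) and Mthfd2 (0.63 ± 0.06) rose. In amino acid breakdown 9 of 22 tested members rose and 6 fell (median 0.02). Gldc, the glycine decarboxylase of the glycine cleavage system, had 271, 255, 275 and 268 CPM in DEX libraries, against 105, 95.3, 97.1 and 90.9 CPM in controls (1.46 ± 0.06). Cth, which makes cysteine from cystathionine, rose (1.14 ± 0.09), and the glutaminase gene Gls2 fell (-0.79 ± 0.08).

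Stress response genes rose as well. In the integrated stress response list 22 of 28 tested members rose and 2 fell (median 0.42). Its central factor gene Atf4 had 292, 334, 306 and 282 CPM in DEX and 189, 199, 194 and 202 CPM in control libraries (0.63 ± 0.05). Asns, with the C/EBP-ATF element shown above, had 197, 210.3, 201 and 198 CPM in DEX and 107, 117, 107 and 109.7 CPM in control libraries (0.87 ± 0.05). The cystine exchanger gene Slc7a11 (0.42 ± 0.07), the pseudokinase gene Trib3 (0.57 ± 0.09) and the tRNA synthetases Aars (0.51 ± 0.05), Gars (0.51 ± 0.03) and Cars (0.61 ± 0.04) rose, while Gdf15, a stress cytokine gene, fell (-0.69 ± 0.09). This list shares Psat1, Shmt2 and Mthfd2 with the serine list. Of unfolded protein response genes, 18 of 26 tested members rose and 1 fell (median 0.23), with 0 lower without any 1 of DEX replicates 1 to 3 or control replicates 1, 2 and 4. Herpud1 (0.73 ± 0.05), Creld2 (0.66 ± 0.06), Dnajc3 (0.47 ± 0.05) and calreticulin (Calr, 0.39 ± 0.03) rose. Of heat shock genes 10 rose and 2 fell of 23, with the small chaperone gene Cryab higher (0.63 ± 0.06).

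Redox and metal genes gave an uneven picture. Of NRF2 and redox genes, 5 of 26 tested members rose and 12 fell (median -0.10). Gclc, the catalytic subunit of the first step in glutathione synthesis, had 840.5, 794, 798 and 805 CPM in DEX libraries and 416, 408, 427 and 418 CPM in controls (0.95 ± 0.04), whereas its partner subunit Gclm (-0.33 ± 0.04), glutathione synthetase (Gss, -0.43 ± 0.07) and heme oxygenase (Hmox1, -0.54 ± 0.05) fell. Of iron, zinc and metallothionein genes, 4 of 19 tested members rose and 12 fell (median -0.21). The zinc and iron importer gene Slc39a14 had 359.6, 369, 351 and 362 CPM in DEX and 182, 177, 181 and 187 CPM in control libraries (0.99 ± 0.03) and rose with Fth1. The iron exporter gene Slc40a1 (-0.81 ± 0.05), the iron sensor gene Tfr2 (-0.62 ± 0.09) and the importer gene Slc11a2 (-0.38 ± 0.04) fell.

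Proliferation genes rose almost without exception. In the G2 and mitosis list 36 of 36 tested members rose (median 0.68), and in the S phase list 34 of 36 (median 0.58), with 0 lower in either. Rrm2, the small subunit of ribonucleotide reductase, had 209, 232, 214 and 209.7 CPM in DEX libraries and 78.8, 69.0, 71.0 and 68.3 CPM in controls (1.59 ± 0.07). E2f2 (1.12 ± 0.10), the polymerase gene Pole (0.92 ± 0.08), thymidine kinase (Tk1, 0.88 ± 0.08) and Mcm3 with the E2F motifs shown above (0.68 ± 0.06) rose. Top2a had 557, 571, 549 and 569.6 CPM in DEX libraries, against 399.9, 347, 361 and 356 CPM in controls (0.62 ± 0.06). Foxm1, a factor that drives mitotic genes, had 139, 162, 145 and 132 CPM in DEX and 79.2, 71.7, 74.6 and 77.9 CPM in control libraries (0.93 ± 0.07), and its partner gene Mybl2 (0.93 ± 0.07), cyclin A (Ccna2, 0.92 ± 0.08) and the kinase gene Plk1 (0.87 ± 0.07) rose by similar amounts.

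The list of cycle brakes and G1 cyclins did not move as 1 group. Of cell cycle inhibitors and G1 cyclins, 9 of 28 tested members rose and 8 fell (median -0.06). Gadd45g (1.13 ± 0.08), the INK4 genes Cdkn2c (0.57 ± 0.08) and Cdkn2d (0.51 ± 0.07) and the pocket protein gene Rbl1 (0.69 ± 0.07) rose, and the INK4 gene Cdkn2b (-0.49 ± 0.05), Btg1 (-0.58 ± 0.06) and cyclin G2 (Ccng2, -0.52 ± 0.05) fell. Of p53 targets, 6 of 29 tested members rose and 9 fell (median -0.09). Plk3, a stress kinase gene, had 14.2, 15.1, 16.3 and 13.0 CPM in DEX and 5.13, 3.96, 4.28 and 4.88 CPM in control libraries (1.68 ± 0.10), while Pmaip1, which encodes the death protein NOXA, fell (-0.75 ± 0.06). Among apoptosis regulators 4 rose and 8 fell of 30. The survival gene Bcl2l1 had 352, 344, 362 and 329 CPM in DEX libraries, against 197, 204, 197 and 199 CPM in controls (0.80 ± 0.04), and the pro-death gene Bmf (-0.76 ± 0.06) and the survival gene Bcl2 (-0.29 ± 0.06) fell.

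Among signalling genes, 2 of the NOTCH receptor genes rose. Notch1 had 114, 114, 107 and 107 CPM in DEX libraries and 47.2, 45.7, 44.2 and 43.9 CPM in controls (1.29 ± 0.06), and Notch4 had 18.1, 19.9, 17.2 and 19.1 CPM in DEX and 5.51, 6.16, 6.45 and 4.36 CPM in control libraries (1.73 ± 0.12). Notch2 stayed at 332 ± 10.4 CPM in DEX and 308 ± 13.1 CPM in control cells (0.11 ± 0.05, edgeR adjusted p = 0.0578). The target gene Hes1 fell (-0.57 ± 0.08), and of the list as a whole 3 rose and 2 fell of 14. In the WNT list 4 of 21 tested members rose and 9 fell (median -0.05), with Wnt4 (1.07 ± 0.05) and the receptor gene Fzd4 (0.68 ± 0.09) higher and Fzd7 (-0.73 ± 0.05), Tcf7l2 (-0.79 ± 0.11) and beta-catenin (Ctnnb1, -0.30 ± 0.04) lower. In the TGF-beta and BMP list 3 of 29 tested members rose and 15 fell (median -0.12). Tgfb3 (-0.85 ± 0.05), the inhibitory SMAD genes Smad6 (-0.60 ± 0.06) and Smad7 (-0.48 ± 0.05) and the BMP target genes Id2 (-0.47 ± 0.07) and Id3 (-0.63 ± 0.05) fell, and the latent TGF-beta binding protein gene Ltbp1 rose (0.85 ± 0.06).

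Targets of YAP and TEAD parted. Of this list, 6 of 25 tested members rose and 14 fell (median -0.16). Ankrd1 had 439, 485, 444 and 427 CPM in DEX libraries, against 1003, 1024, 1073 and 1046 CPM in controls, and Cyr61 had 100.1, 116, 104 and 105 CPM in DEX and 199, 206, 203 and 213 CPM in control libraries (-0.95 ± 0.05). Ctgf, of the same matricellular family as Cyr61, had 421, 404, 429 and 402 CPM in DEX libraries and 126, 120.3, 128 and 99.6 CPM in controls (1.80 ± 0.07). The groups were apart in all of these, with Ctgf above and Ankrd1 and Cyr61 below. Among growth factors and receptors 11 rose and 10 fell of 37. The neuregulin receptor gene Erbb3 had 62.5, 63.9, 62.3 and 56.4 CPM in DEX and 22.2, 23.6, 20.8 and 20.1 CPM in control libraries (1.50 ± 0.06), stem cell factor (Kitl, 1.02 ± 0.06) and Tgfa (0.63 ± 0.05) rose, and Pdgfb (-0.78 ± 0.06) and neuregulin 1 (Nrg1, -0.57 ± 0.05) fell.

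Keratin and junction genes moved in both directions. In the list 12 of 30 tested members rose and 9 fell (median 0.00). Krt20, a keratin of mature surface epithelia, had 477, 468, 480.1 and 477 CPM in DEX libraries and 136, 131, 133 and 129 CPM in controls, 3.60-fold higher (1.85 ± 0.04, edgeR adjusted p = 1.26e-20). Periplakin (Ppl), which links keratins to desmosomes, had 412, 400.0, 393 and 385 CPM in DEX libraries, against 145, 159.9, 144 and 149 CPM in controls (1.41 ± 0.04), and Krt7 (0.77 ± 0.04), Krt19 (0.27 ± 0.04) and Tjp1 of tight junctions (0.54 ± 0.05) rose. The hepatocyte keratin gene Krt8 did not pass (0.03 ± 0.04), and the gap junction gene Gjb1 fell (-0.91 ± 0.12). Among integrins and adhesion receptors 6 of 28 tested members rose and 14 fell (median -0.17). The collagen receptor subunit gene Itga1 had 176, 212, 174 and 202 CPM in DEX and 439.6, 456, 427 and 451 CPM in control libraries (-1.21 ± 0.06), and the leukocyte adhesion genes Vcam1 (-1.29 ± 0.06) and Icam1 (-1.0 ± 0.16) fell with Cd44, while Itga3 (0.39 ± 0.04) and Itga5 (0.32 ± 0.05) rose.

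Matrix genes moved both ways, as 9 of 33 tested members rose and 11 fell (median -0.09), and 5 were higher without DEX replicate 1. Thrombospondin 1 (Thbs1) had 109, 107, 107 and 106 CPM in DEX libraries, against 272, 279, 267 and 272 CPM in controls (-1.34 ± 0.04), and tenascin C (Tnc) stood at 10.4 ± 0.909 CPM in DEX and 28.7 ± 1.79 CPM in control cells (-1.46 ± 0.11). Fibulin 2 (Fbln2, 0.72 ± 0.07) and the collagen VI genes Col6a1 (0.58 ± 0.05) and Col6a2 (0.97 ± 0.12) rose. Of matrix proteases and inhibitors, 11 of 29 tested members rose and 8 fell (median -0.02). Adam9 (0.78 ± 0.05), Adam8 (0.62 ± 0.06) and Timp2 (0.42 ± 0.04) rose with Adam12 and Tll1, and Adamts1 fell to 106 ± 2.92 CPM in DEX cells, against 251 ± 5.87 CPM in control cells (-1.24 ± 0.06). Actin and contractile genes leaned down, as 6 of 35 tested members rose and 18 fell (median -0.21). Tropomyosin (Tpm1, -0.67 ± 0.04), the microvillus gene Vil1 (-0.86 ± 0.06) and Rhob (-0.58 ± 0.06) fell with Actg1, and Ezr, at 1139, 1242, 1201 and 1121 CPM in DEX libraries and 682, 676, 692 and 675 CPM in controls, rose with the tubulin gene Tubb6 (0.70 ± 0.05).

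Counts of respiration and ribosomal protein genes that passed changed when single libraries were left out, most for respiration without DEX replicate 2. Of nuclear genes of the respiratory chain, 4 of 35 tested members rose and 0 fell (median 0.05), whereas without DEX replicate 2 17 rose (median 0.10) and without control replicate 3 2 rose. Of the 12 tested genes of mitochondrial DNA 0 passed with edgeR, with 0 at an unadjusted p under 0.05 and 0 in DESeq2 or limma-voom. Without DEX replicate 2, which had the highest mitochondrial share of counts, 7 of them were lower in DEX (median -0.23). Among cytosolic ribosomal protein genes 3 rose and 3 fell of 41, with 5 higher without DEX replicate 2 and 1 higher without control replicate 2. Rps19, shown after its values were seen, had 449, 256, 462 and 445 CPM in DEX libraries and 427, 446, 479 and 393 CPM in controls, and its low value was that of DEX replicate 2. Ribosome biogenesis genes rose more often, as 19 of 32 tested members rose and 3 fell (median 0.19), with Nolc1 (0.48 ± 0.05), Rrp12 (0.45 ± 0.06) and Nop56 (0.40 ± 0.04). Among autophagy and lysosome genes 10 rose and 12 fell of 40, and the cargo receptor gene Sqstm1 fell (-0.45 ± 0.04).

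**Figure D4:**
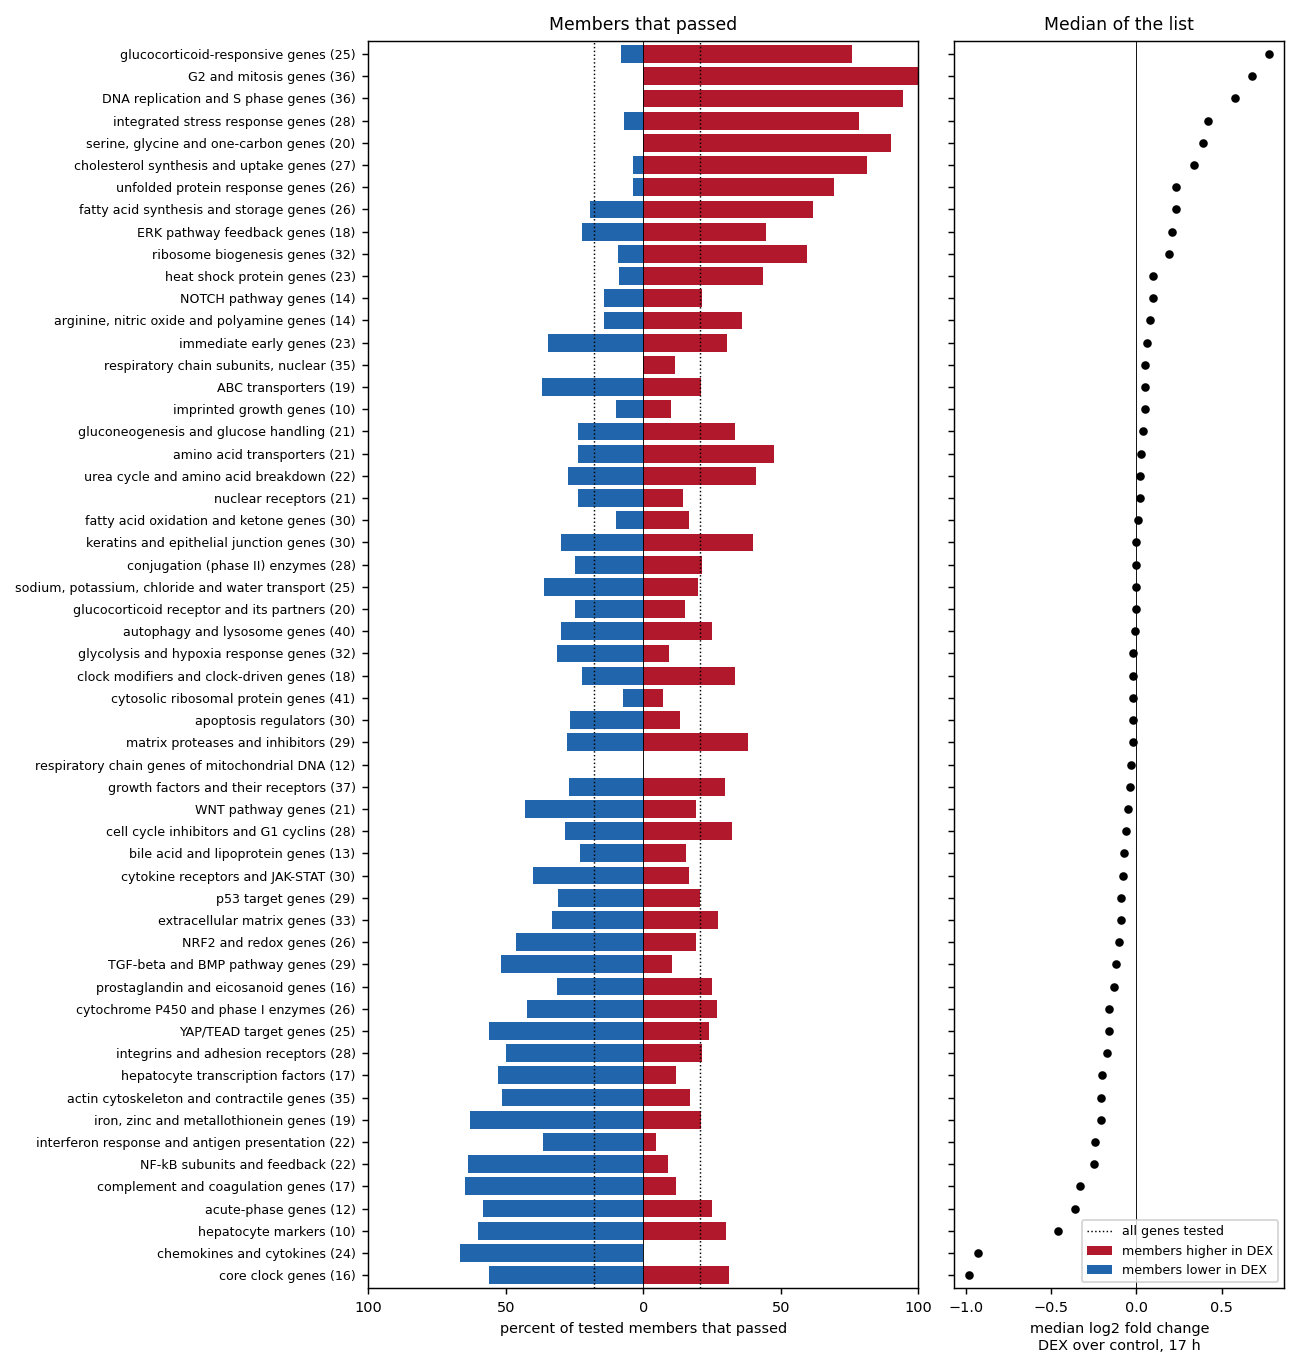
Gene lists with at least 10 tested members, their number in brackets, ordered by median log2 fold change of DEX over control at 17 h (right panel). The left panel gives the percent of tested members that rose (red) and fell (blue), with dotted lines at the 20.5% and 17.9% of all tested genes, and shows glucocorticoid-responsive, mitotic, S phase, stress response, serine and sterol genes at the top and clock genes and chemokines at the bottom.

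The response at 17 h was compared with that of the separate DEX and control libraries at 25 h by a test of the difference between the effects, 17 h minus 25 h. This test passed for 2283 of 14114 genes (16.2%), with the difference above 0 for 1167 and below 0 for 1116. Of 5419 genes called at 17 h and 1659 called at 25 h, 1322 were called at both, 1245 with the same sign and 77 with opposite signs. Of the 20 largest rises 14 also rose at 25 h, and the difference passed for 16. Of the 20 largest falls 8 also fell and 2 rose at 25 h, and the difference passed for all 20. Both sets were chosen for their size at 17 h, and the difference uses those same values. That choice alone favours a smaller effect at 25 h and a difference that passes. The single genes named next were likewise picked with their values of 17 h known. Genes that rose at 17 h and whose difference lay above 0 included Krt20 (0.43 ± 0.04 at 25 h, difference 1.42 ± 0.06), Adam12 (0.72 ± 0.10, 2.33 ± 0.15), Pim3 (0.16 ± 0.05, 1.69 ± 0.07), Foxred2 (0.51 ± 0.11, 2.22 ± 0.14), Notch1 (0.59 ± 0.06, 0.70 ± 0.09), Gldc (0.43 ± 0.06, 1.03 ± 0.08) and Gclc (-0.07 ± 0.04, 1.02 ± 0.06). All 7 differences passed, with an edgeR adjusted p of at most 1.59e-06.

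Among falls the difference passed for Nos2 (-0.64 ± 0.11 at 25 h, difference -1.34 ± 0.17), Thbs1 (-0.35 ± 0.03, -0.99 ± 0.05), Ankrd1 (-0.30 ± 0.05, -0.91 ± 0.07) and Itga1 (-0.21 ± 0.06, -1.0 ± 0.09). Dbp and Tef, which fell at 17 h, rose at 25 h (Dbp 0.66 ± 0.10, difference -4.55 ± 0.21, and Tef 0.51 ± 0.05, difference -3.26 ± 0.08), and both differences passed. Tll1 kept an effect of 2.60 ± 0.34 at 25 h, and its difference of 1.06 ± 0.51 did not pass (edgeR adjusted p = 0.181) except without DEX 25 h replicate 4 (1.45, adjusted p = 0.0129). Med12l likewise stood at 2.46 ± 0.65, with a difference of -0.02 ± 0.86 (adjusted p = 0.948). A difference did not pass for Mcm3 (0.85 ± 0.07 at 25 h, difference -0.17 ± 0.09, edgeR adjusted p = 0.218) or Top2a (0.64 ± 0.06 at 25 h, difference -0.02 ± 0.08, adjusted p = 0.916). It passed for Rrm2 (0.92 ± 0.08 at 25 h, difference 0.67 ± 0.11, adjusted p = 7.63e-05).

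**Figure D5:**
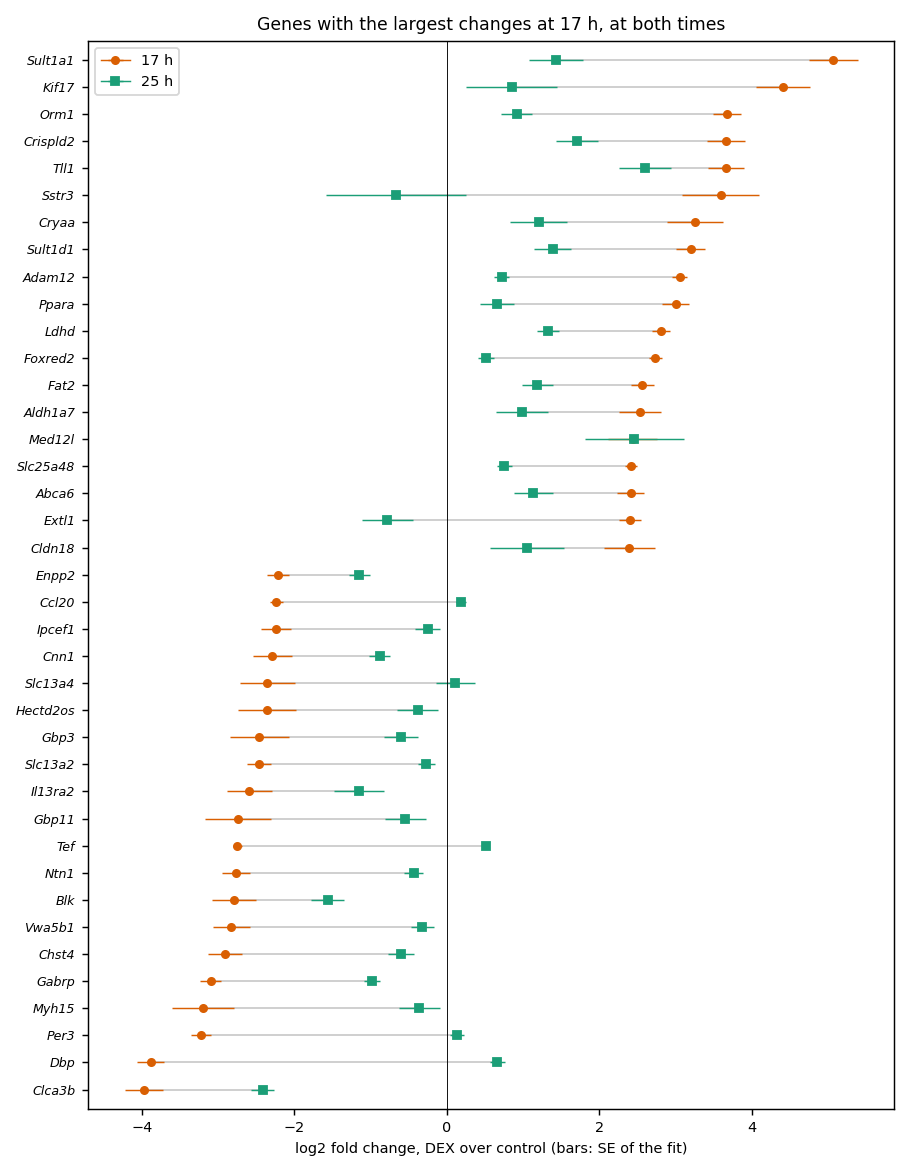
Fitted log2 fold change of DEX over control, with its SE as a bar, at 17 h (orange circles) and 25 h (green squares) for the 20 largest rises and 20 largest falls of 17 h, without Zbtb16, whose controls had 0 counts. Most squares lie nearer to 0 than the circles of the same gene, which the choice of genes by their size at 17 h favours. Those of Dbp and Tef, which rose at 25 h, lie right of 0, with those of Ccl20, Per3 and Slc13a4 just right of it and those of Sstr3 and Extl1 left of it, and that of Med12l lies on its circle.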

How the data were processed

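RNA-seq of AML12 cells was analysed from the authors' deposited table of raw counts per gene. Per the submitters' processing notes, FastQC 0.11.8 and STAR were used and the build was mm10 (GRCm38). Which read counter, annotation release and strand setting were used is not given in the sources used here. Column names gave each library's group. The count test was edgeR 4.0.16 (quasi-likelihood) in R 4.3.3 on all 16 AML12 libraries, with TMM scaling, filterByExpr and 1 mean per group. Benjamini-Hochberg adjustment ran over all 14114 genes and the threshold was 0.05. The SE is the unshrunken log2 fold change over the square root of F. Single genes are the 20 largest rises and falls (groups apart, at least 1 CPM in 1 group), the core clock genes, in each other list the 8 of smallest p, all of lists with up to 14 tested members and the most abundant member, and the 10 largest gains and losses in CPM. The members and lists were chosen with earlier results of these data known. Alternatives were other scalings, no filter, DESeq2 1.42.0, limma-voom (limma 3.58.1), a replicate block, only the 8 libraries of 17 h, thinned counts and leaving out each library. On simulated data (13853 genes, 10 runs with 200 changed genes each), 73.3%, 91.6% and 99.4% of changes of 0.5, 1 and 2 log2 units were found. Of the calls, 5.43% were false. Far more genes passed in the real data and no simulated library was made to stand apart, so these rates may not hold for it. Total counts of 15032450 to 17472840 per library limit what low genes can show. Intervals and floors cover counting error only.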

Additional observations from a re-analysis of the deposited data

Results flagged for a closer look

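For 14 named genes the DEX effect at 17 h differed from that at 25 h by the test of the difference (edgeR, log2 units, 17 h minus 25 h). It lay above 0 for Adam12 (2.33), Foxred2 (2.22), Pim3 (1.69), Krt20 (1.42), Gldc (1.03), Gclc (1.02), Notch1 (0.70) and Rrm2 (0.67). It lay below 0 for Dbp (-4.55), Tef (-3.26), Nos2 (-1.34), Itga1 (-1.0), Thbs1 (-0.99) and Ankrd1 (-0.91).

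A single library stood far from the other 3 of its group at 17 h in 35 of 584 pairs of a named gene and a group, where chance alone gives about 1 in 20. DEX replicate 2 was that library in 13 of the 35. DEX replicate 2 lay above the other DEX libraries for Ccna2 (149 CPM, against 116 to 121 CPM), Cd44 (503 CPM, against 436 to 445 CPM), Dusp6 (193 CPM, against 164.7 to 165.4 CPM), Gabrp (4.56 CPM, against 2.96 to 3.23 CPM), Herpud1 (303 CPM, against 253 to 258 CPM), Id2 (197 CPM, against 144 to 151 CPM), Il33 (51.3 CPM, against 43.0 to 44.2 CPM), Scd2 (6678 CPM, against 5763 to 5844 CPM) and Spp1 (1080.1 CPM, against 964 to 981 CPM). DEX replicate 2 lay below the other DEX libraries for Fkbp5 (313 CPM, against 374 to 375 CPM), Me1 (317 CPM, against 329.6 to 332 CPM), Psph (40.1 CPM, against 43.0 to 43.5 CPM) and Rps19 (256 CPM, against 445 to 462 CPM). DEX replicate 1 lay above the other DEX libraries for Abcc10 (92.4 CPM, against 85.0 to 85.9 CPM) and Tfr2 (12.9 CPM, against 9.75 to 9.87 CPM). DEX replicate 3 lay above the other DEX libraries for C3 (1496 CPM, against 1443 to 1451 CPM), Chst4 (0.975 CPM, against 0.696 to 0.74 CPM), Ctnnb1 (1506 CPM, against 1429 to 1438 CPM) and Rrp12 (61.4 CPM, against 56.7 to 57.4 CPM). DEX replicate 4 lay above the other DEX libraries for Birc3 (69.4 CPM, against 62.2 to 63.1 CPM). DEX replicate 4 lay below the other DEX libraries for Itga3 (528 CPM, against 573 to 581 CPM). Control replicate 2 lay above the other control libraries for Hk1 (521 CPM, against 492 to 496 CPM). Control replicate 2 lay below the other control libraries for Il1rn (18.9 CPM, against 22.7 to 23.2 CPM), Ntn1 (4.73 CPM, against 5.25 to 5.34 CPM) and Saa3 (99.5 CPM, against 109 to 111 CPM). Control replicate 1 lay above the other control libraries for Cpt1a (159 CPM, against 147 to 148 CPM), Mcm3 (90.9 CPM, against 79.9 to 81.4 CPM), Nolc1 (135 CPM, against 117 to 119 CPM) and Ptgs1 (49.5 CPM, against 46.2 to 46.6 CPM). Control replicate 1 lay below the other control libraries for Bsg (1726 CPM, against 1868 to 1889 CPM) and Slc13a4 (0.897 CPM, against 1.49 to 1.54 CPM). Control replicate 3 lay above the other control libraries for Cry2 (20.5 CPM, against 18.0 to 18.3 CPM) and Hectd2os (1.71 CPM, against 1.10 to 1.17 CPM). Control replicate 4 lay above the other control libraries for Clca3b (15.9 CPM, against 14.2 to 14.3 CPM) and H6pd (239 CPM, against 228 to 229 CPM).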

How the results depend on the processing

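With 24 alternatives, no count over all genes moved by over 1.5 times. Genes that passed numbered 5403 with RLE size factors, 5459 with total counts, 5268 with no filter, 5039 in DESeq2 (5002 shared with the 5419), 5415 in limma-voom (5338 shared), 4825 with only the 17 h libraries and 5285 in thinned counts. Leaving out 1 library of 17 h gave 4812 to 5569, and 1 of 25 h gave 5290 to 5452. At least 2-fold changes numbered 455 to 733, the highest with no filter, and differences between the times 1962 to 2656 over all alternatives that could give them. The replicate number as a block gave 5369 calls, 5264 of them shared, and 0 higher NF-kB members. The labels pair nothing by that number, and same-numbered DEX and control libraries deviated with correlations of -0.03, -0.08, 0.16 and -0.07, so not every library correlated best with its own number. Of 292 named genes 7 changed their call in at least 1 alternative, and 0 changed sign as a called gene. Besides those given above, Notch2 passed with the replicate block (0.11) and without control 25 h replicate 4 (0.10), Hsd11b1 did not pass in thinned counts (-1.18), Hsd11b2 not with no filter (-0.92), in DESeq2 (-0.93) or in thinned counts (-0.90), Angptl4 not with no filter (-0.18) or the 17 h libraries alone (-0.17), and Rps19 passed with no filter (-0.12). Of 120 list counts 20 moved by over 1.5 times in an alternative. With total counts, lower members numbered 7 among clock modifiers and 5 in fatty acid oxidation. The cause of these moves was not tested.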

Other observations

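Chromosome 19 held 511 tested genes, of which 47.2% passed, 26.4% higher and 20.7% lower in DEX, the highest share of any chromosome, and chromosome X the lowest at 33.3% of 424. Of the 10 largest gains in CPM, Ahnak, Fth1, Scd2, Myof and Psat1 lie on chromosome 19. These shares are descriptions with no test, and neighbouring genes are not independent. Among 449 tested long intergenic RNAs the median log2 fold change was -0.13, against 0.01 among 11703 protein-coding genes, and 97 fell while 42 rose. These RNAs are low in level, which was not separated from their class.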
